A study of Mus musculus with 8 samples.

Results

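The 9 genes described here, Bmp4, Bmpr1a, Smad1, Smad6, Grem1, Id1, Id2, Id3 and Id4, carry the bone morphogenetic protein (BMP) pathway from its ligand to its best known targets. They were chosen by name, as 9 of the 55413 GENCODE genes annotated on the standard mouse chromosomes. Each gene was given a window of its annotated body plus 20 kb on each side in genome build mm10, and every peak that overlapped a window by at least 1 bp was taken. In all, the windows held 56 regions once the peaks of all libraries were merged.

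BMP ligands bind paired type I and type II receptors on the cell surface, and the type I receptor phosphorylates the receptor SMADs, which enter the nucleus with SMAD4 and bind GC-rich and CAGAC-containing DNA. The Id genes, which encode helix-loop-helix proteins that lack a DNA-binding region and block bHLH factors, are the classic direct targets of this signal. In mouse embryonic stem cells BMP signalling through Id genes is known for holding back neural differentiation, and in fibroblasts it is known for helping the early mesenchymal-to-epithelial step of reprogramming.

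The libraries came from mouse embryonic fibroblasts (MEFs), prepared from mid-gestation embryos of a cross between mice with the Oct4-GFP (OG2) reporter and the 129 strain, and taken at day 5 of reprogramming in iCD3 medium. Every group received retroviral Oct4. The NanogWT arm (Nanog+Oct4 in the labels) also received wild-type Nanog, and the NanogBiD arm (NanogN70+Oct4) received Nanog carrying at its N terminus the part of SS18 that binds BRG1, the identity of N70 with BiD being taken from the study's text. CUT&Tag, in which an antibody guides a transposase to chromatin, was run in both arms for the FLAG tag on NANOG, for BRG1 (the ATPase of the BAF remodelling complex), for H3K27ac (a mark of active promoters and enhancers) and for H3K4me1 (a mark of enhancers, labelled H3K4me in the antibody field).

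This gave 8 groups with 1 library each, made by merging replicates before peaks were called. No comparison between the arms therefore has a replicate check, and no p-value is given. The 8 lists held from 30859 to 74782 peaks, and the NanogBiD list was 1.27 times as long as that of NanogWT for FLAG, 1.74 times for BRG1, 1.2 times for H3K27ac and 0.791 times for H3K4me1. Sequencing depth is unknown here and heights were not scaled to it, so a deeper library and a wider occupancy cannot be told apart in these lists. Promoters of 4 of 5 fibroblast genes (Col1a1, Col1a2, Thy1 and Twist1, not Prrx1) had an H3K27ac peak in each arm, whereas of 5 pluripotency genes none had one in NanogWT and Sall4 alone had one in NanogBiD. Retroviral delivery reaches cells unevenly, and what share of the cells carried both factors is not in the lists.

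The promoters of the Id genes are shown first, because the tallest FLAG summits of Id2 and Id3 lay in them. They are the 250 bases before the RefSeq start site (build GRCm38, the same assembly as mm10), written 5′ to 3′ on the strand of the gene, and capitals mark the letters that matched a motif searched on both strands. RefSeq promoters matched 8 of the 9 genes, and Id1 was the gene without an entry.
Id2 upstream (chr12:25096093-25096342, minus strand): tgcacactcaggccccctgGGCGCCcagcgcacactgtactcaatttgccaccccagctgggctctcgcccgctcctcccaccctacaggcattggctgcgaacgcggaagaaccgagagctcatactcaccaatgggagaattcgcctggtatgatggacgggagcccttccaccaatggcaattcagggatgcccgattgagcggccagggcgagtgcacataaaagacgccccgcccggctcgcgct
Id3 upstream (chr4:136143572-136143821, plus strand): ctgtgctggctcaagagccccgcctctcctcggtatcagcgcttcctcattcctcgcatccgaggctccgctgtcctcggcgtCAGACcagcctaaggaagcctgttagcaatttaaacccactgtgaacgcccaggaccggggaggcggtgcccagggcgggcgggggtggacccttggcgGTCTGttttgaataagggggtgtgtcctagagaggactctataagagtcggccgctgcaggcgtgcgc
Id4 upstream (chr13:48260866-48261115, plus strand): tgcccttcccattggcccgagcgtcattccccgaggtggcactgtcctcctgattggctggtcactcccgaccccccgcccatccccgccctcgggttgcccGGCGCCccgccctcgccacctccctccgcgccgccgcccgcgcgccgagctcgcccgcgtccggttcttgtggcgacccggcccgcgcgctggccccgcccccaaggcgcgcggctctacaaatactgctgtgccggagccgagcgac

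The capitals in Id2 and Id4 are GGCGCC, the GC-rich site that BMP SMADs bind, and those in Id3 are CAGAC or its reverse complement, the SMAD box. In promoters taken from 250 bases before to 50 bases after the start, GGCGCC was present in 4 of 8 members (Grem1, Id2, Id4 and Bmpr1a) and in 11.9% of all 32851 promoters of the same length. CAGAC was present in 2 of 8 members (Grem1 and Id3) against 49.6% of all promoters. None of the 8 held the octamer ATGCAAAT, the NANOG core TAATGG, the AP-1 site TGANTCA, or the composite BMP element in which GGCGCC is followed after 5 bases by GTCT. These had background shares of 1.74%, 7.73%, 7.81% and 0.0731%. The 8 promoters had a median GC content of 65.7%, against 52.7% over all promoters, and GC-rich letters such as GGCGCC are more frequent in GC-rich sequence. Matches are a description of the letters, not of bound sites.

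The second set consists of 101-base windows centred on FLAG summits of NanogBiD at Bmpr1a and Smad1, the 2 genes with the largest differences in FLAG peak number. They are given on the plus strand of mm10, and capitals again mark motif matches.
Bmpr1a upstream element (chr14:34508382-34508482, plus strand): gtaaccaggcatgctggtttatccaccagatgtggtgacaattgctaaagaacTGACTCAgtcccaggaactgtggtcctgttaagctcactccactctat
Bmpr1a intron, NanogBiD only (chr14:34467570-34467670, plus strand): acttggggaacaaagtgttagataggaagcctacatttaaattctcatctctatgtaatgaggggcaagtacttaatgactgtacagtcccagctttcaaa
Bmpr1a second intronic site, NanogBiD only (chr14:34483702-34483802, plus strand): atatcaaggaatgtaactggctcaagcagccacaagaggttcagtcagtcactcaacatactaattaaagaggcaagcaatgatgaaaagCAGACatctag
Smad1 internal start (chr8:79350085-79350185, plus strand): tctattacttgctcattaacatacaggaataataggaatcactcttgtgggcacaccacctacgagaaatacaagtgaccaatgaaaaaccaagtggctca
Smad1 intron, NanogBiD only (chr8:79389881-79389981, plus strand): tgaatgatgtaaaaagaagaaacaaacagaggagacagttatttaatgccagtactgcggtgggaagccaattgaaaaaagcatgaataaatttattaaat

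The Bmpr1a upstream element held an AP-1 match, and the same match lay within 50 bases of the NanogWT summit 30 bases away. The second intronic site of Bmpr1a held a CAGAC. The windows at the Bmpr1a intron, the Smad1 internal start and the Smad1 intron held none of the letters searched. Over all member FLAG summits, CAGAC lay within 50 bases of 4 of 23 in NanogWT and 7 of 32 in NanogBiD, against 21.4% and 19.8% of all FLAG summits. AP-1 letters were found at 1 of 23 and 2 of 32 (background 8.14% and 10.4%), and TAATGG at 2 of 23, in Bmp4 and Id4, and 0 of 32 (4.99% and 7.32%). GGCGCC was found at 0 of 23 and at 1 of 32, the Bmpr1a promoter summit of NanogBiD, against 1.95% and 1.56%. The composite element was at none of the member summits.

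FLAG and BRG1 peaks were more numerous at these genes in NanogBiD, with the largest FLAG surplus at Smad1 and Bmpr1a and the largest BRG1 surplus at Smad1 and Id4. The 9 windows together held 23 FLAG peaks in the NanogWT list and 32 in the NanogBiD list, which is a ratio of 1.39 with a 95% exact binomial interval of 0.789 to 2.49. BRG1 had 16 and 24 peaks, a ratio of 1.5 (0.764 to 3.02). H3K27ac had 23 and 24 peaks, a ratio of 1.04 (0.564 to 1.93), and H3K4me1 had 38 and 31, a ratio of 0.816 (0.491 to 1.35). All intervals here cover counting error only, and each of these includes 1. Over the windows of all protein-coding genes the corresponding ratios were 1.21, 1.42, 1.13 and 0.819, and each lay inside the interval of the members. The BRG1 ratio was 1 when each list was limited to its 20000 highest-scoring peaks and 3 when scores of at least 100 were required, and with the latter the H3K4me1 ratio was 0.333. The H3K27ac ratio fell below 1 when scores of at least 100 were required (0.857), when lists were limited to 20000 peaks (0.909) and with windows of 50 kb on each side (0.953). Ratios over protein-coding windows were not computed under these other settings, so the member values have no background there.

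Every window had a peak of every target in both arms. FLAG peaks were more numerous in NanogBiD in 4 windows (Bmpr1a, Smad1, Smad6 and Id2), fewer in Grem1 and equal in the other 4. Over protein-coding windows with a FLAG peak, 50.2% had more and 17.6% had fewer. BRG1 peaks were more numerous in 6 windows (all but Grem1, Id1 and Id2), against 53.2% of windows, and fewer in Grem1 alone, against 12.7%. H3K27ac was split into 3 windows with more, 3 with fewer and 3 equal, with background shares of 37.4% and 17.4% for more and fewer. H3K4me1 was fewer in 5 windows, against 51.6%, and more in Id1 and Id4, against 19.7%. Leaving out each gene in turn moved the FLAG ratio between 1.25 (without Smad1) and 1.5 (without Grem1), and the H3K4me1 ratio between 0.743 (without Id1 or without Id4) and 0.933 (without Smad1). The BRG1 ratio ran from 1.38 (without Smad1) to 1.69 (without Grem1). The H3K27ac ratio crossed 1, from 0.947 (without Bmpr1a) to 1.11 (without Smad1 or without Id3).

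**Figure D1:**
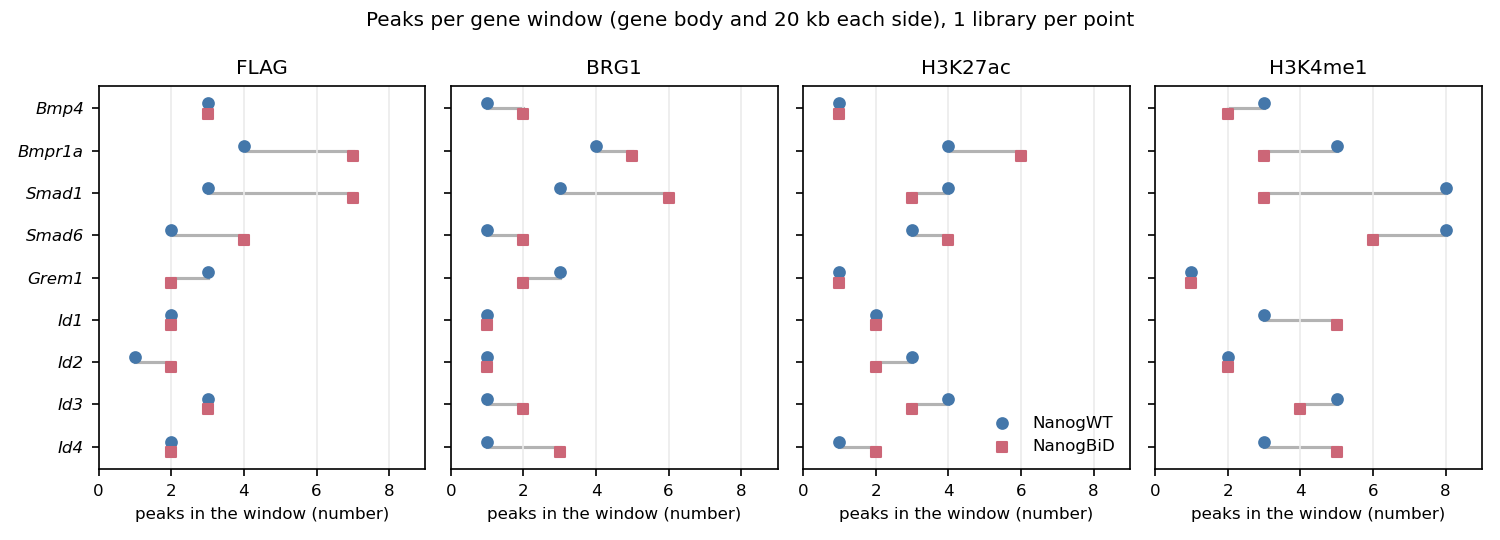
Number of peaks (x axis) in the window of each of the 9 genes (y axis) for the 4 targets, with circles for NanogWT and squares for NanogBiD, 1 library each, joined by a grey line. FLAG went from 4 to 7 peaks at Bmpr1a and from 3 to 7 at Smad1, while H3K4me1 went from 8 to 3 at Smad1.

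Peaks of the 2 arms were then merged, target by target, into regions where they overlapped or touched. Among 35 FLAG regions, 19 were listed in both arms (background 50.5%), 13 in NanogBiD alone and 3 in NanogWT alone. The NanogBiD-only share was 37.1% (Wilson interval 23.2 to 53.7), against 33.7% of all FLAG regions of the genome, and the NanogWT-only share was 8.57% (2.96 to 22.4), against 15.8%. Of 28 BRG1 regions, 11 were shared, 4 were NanogWT only and 13 were NanogBiD only, against 41.6%, 9.91% and 48.4% of all BRG1 regions. H3K27ac had 19 shared regions of 28, with 4 in NanogWT only and 5 in NanogBiD only (background 56.4%, 14.6% and 29.1%). H3K4me1 had 24 shared of 42, with 13 in NanogWT only and 5 in NanogBiD only (47.9%, 34.8% and 17.3%). Each of the member shares had an interval that contained the share of the genome. With lists of equal size, limited to their 20000 highest-scoring peaks, NanogBiD-only and NanogWT-only regions numbered 4 and 3 for FLAG and 3 and 3 for BRG1. The shares over the genome were not computed at this limit, and those above belong to the full lists.

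**Figure D2:**
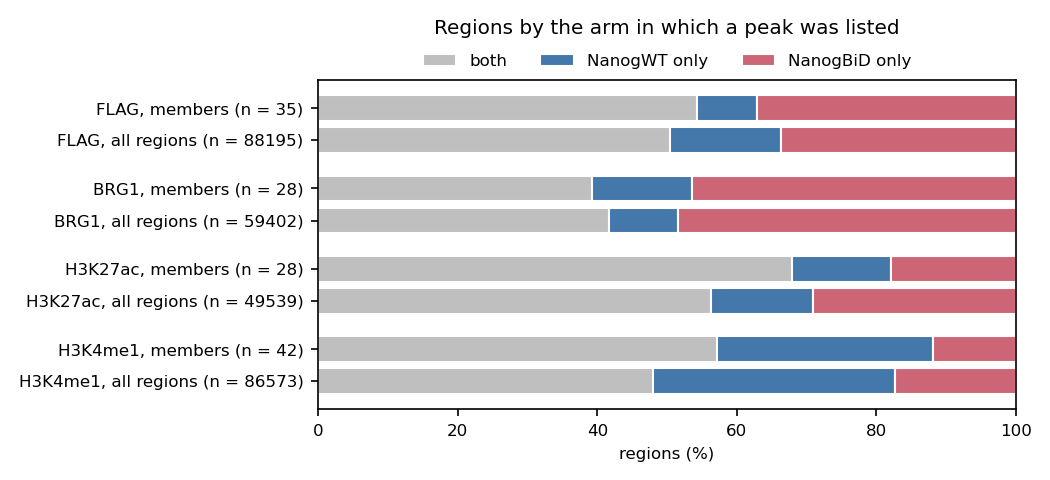
Share of regions in percent (x axis) that were shared by the arms or listed in only 1 of them, for the regions of the 9 genes and for all regions of the genome, per target (y axis, with the number of regions). The shared part is wider in the members for FLAG (54.3% against 50.5%), H3K27ac (67.9% against 56.4%) and H3K4me1 (57.1% against 47.9%) and narrower for BRG1 (39.3% against 41.6%), and each member share has an interval that contains the genome share.

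The windows of Bmpr1a, Smad1 and Smad6 are 101.1 to 132.6 kb long and make up 55.8% of the window length, and they held 10 of the 13 FLAG regions and 7 of the 13 BRG1 regions listed in NanogBiD only. The other 6 windows are 41.2 to 52.5 kb long. The FLAG regions of NanogBiD only lay at Bmp4, Bmpr1a, Smad1, Smad6, Id2 and Id3, with heights of 9 to 37 tags (median 15), and 8 of them reached 15 tags. Over the genome, NanogBiD-only FLAG regions had a median height of 12.0 tags and shared regions 18.0 tags. The 13 BRG1 regions were lower, from 8 to 24 tags (median 12), and 3 reached 15 tags. Over the genome, NanogBiD-only BRG1 regions had a median height of 11 tags and shared regions 16 tags. The 4 BRG1 regions of NanogWT only, at Bmpr1a, Smad1, Grem1 and Id1, had heights of 11 to 13 tags. A region without a listed peak in an arm can still hold tags below the threshold of the peak caller, and the lowest height listed was 6 to 8 tags.

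With all 8 lists merged, 12 of the 56 regions had FLAG in NanogBiD only, against 20.1% of the regions built in the same way in the windows of all protein-coding genes. All 12 lay outside promoters, which were taken as 2 kb either side of any start site of the gene, and so did 88.4% of such regions over protein-coding windows. FLAG and BRG1 were both listed in NanogBiD only at 6 regions: 2 in Bmpr1a, 3 in Smad1 and 1 in Smad6 (background 6.79%). Of these 6, H3K27ac of NanogBiD was listed at 2 and H3K4me1 of NanogBiD at 3, and no background share was computed for these 2 counts. Regions with FLAG and BRG1 together numbered 13 in NanogWT and 21 in NanogBiD, of 56, against 27.6% and 41.6% over protein-coding windows. Regions carrying both histone marks numbered 15 and 14 (background 30.1% and 31.7%). Where a background is given, the Wilson interval of the member share contained the share over protein-coding windows.

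At promoters, the full lists gave the same number of genes in both arms for each target. A FLAG peak and a BRG1 peak were present at 8 of 9 promoters in each arm, with Id1 as the exception, against 55.2% and 56.8% of protein-coding promoters for FLAG in NanogWT and NanogBiD and 53.9% and 55.5% for BRG1. H3K27ac was present at 9 of 9 in each arm (57.1% and 59.9%). H3K4me1 was present at 8 of 9 in NanogWT, where Id1 lacked it, and at 8 of 9 in NanogBiD, where Bmpr1a lacked it (63.3% and 62%). With limited peaks the member counts of the arms were no longer equal. Scores of at least 100 left BRG1 at 4 of 9 promoters in NanogWT and 7 of 9 in NanogBiD. The 20000 highest-scoring peaks of each list left BRG1 at 7 and 6 and FLAG at 5 and 3. Shares of all protein-coding promoters were not computed at these limits, so these counts have no background.

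Bmp4 encodes the ligand. Its promoter region (chr14:46385533-46388328), over internal start sites 3.74 kb inside the gene, had 2 FLAG summits of 15 and 25 tags in NanogWT and of 17 and 19 tags in NanogBiD. BRG1 was listed there at 12 tags in NanogWT and at 13 and 13 tags in NanogBiD. H3K27ac was 14 and 16 tags. H3K4me1 lay apart from these, over annotated start sites just inside the first one, at 22 tags in NanogWT and 17 in NanogBiD. One of the 2 BRG1 summits of NanogBiD, in the gene at chr14:46385728-46386504, was in a region listed in that arm only, and the ratio of every FLAG, BRG1, H3K27ac and H3K4me1 region listed in both arms had an interval that included 1. Away from the gene, FLAG was listed at 9 tags in NanogBiD only (chr14:46370615-46371151) and at 9 tags in NanogWT only (chr14:46408956-46409630).

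Bmpr1a, the type I receptor, had the tallest FLAG and BRG1 summits of the 9 genes. They lay in a region 4.96 kb upstream (chr14:34507026-34509567), the element whose sequence is printed above. FLAG was 60 tags in NanogWT and 57 in NanogBiD, and BRG1 was 28 and 49 tags, a ratio of 1.75 (1.08 to 2.89). H3K27ac was 32 and 37 tags and H3K4me1 24 and 21. The FLAG ratio was 0.95 (0.649 to 1.39), and the BRG1 difference was smaller than the 2-fold taken as a change.

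An intron of Bmpr1a 35.5 kb into the gene (chr14:34466943-34468667) was listed in NanogBiD alone, at 37 tags for FLAG, 24 for BRG1 and 16 for H3K27ac, and had no H3K4me1 peak in either arm. Its 37 tags made it the tallest NanogBiD-only FLAG region of the 9 genes. A second NanogBiD-only site 19.5 kb into the gene (chr14:34483442-34484295) had FLAG at 18 and BRG1 at 9 tags, on H3K4me1 that was listed in both arms at 14 and 10 tags. Another, 51.1 kb into the gene (chr14:34451605-34452794), had FLAG at 27 tags and no peak of any other target. Around the internal start site (chr14:34455929-34460719) FLAG was 45 tags in NanogWT and 34 in NanogBiD, BRG1 15 and 22, and H3K27ac 16 and 26, and H3K4me1 was listed in NanogWT only, at 18 tags. The main promoter (chr14:34501217-34504294) had FLAG at 22 and 20 tags, BRG1 at 20 and 22, and H3K27ac at 45 and 47, the highest acetylation of the 9 genes.

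Smad1 encodes the receptor SMAD that BMPR1A activates, and among the 9 genes it showed the largest differences between the arms in the number of FLAG, BRG1 and H3K4me1 peaks. For H3K27ac, with 4 peaks in NanogWT and 3 in NanogBiD, the difference was larger at Bmpr1a, with 4 and 6. FLAG was listed at 3 places in NanogWT and at 7 in NanogBiD, and BRG1 at 3 and 6. Around the internal start site 49.6 kb into the gene (chr8:79348999-79350849) FLAG was 14 tags in NanogWT and 32 in NanogBiD, which is a ratio of 2.29 (1.19 to 4.64). BRG1 at the same place was 8 and 18 tags, a ratio of 2.25 (0.931 to 5.98), H3K27ac 11 and 18, and H3K4me1 17 and 15. This was the only shared FLAG or BRG1 region of the 9 genes with an at least 2-fold difference, a size that 7.73% of shared FLAG regions and 7.35% of shared BRG1 regions of the genome reached with NanogBiD higher. No shared member region was at least 2-fold lower for FLAG or BRG1, as 1.92% and 0.465% of shared regions of the genome were. No shared H3K27ac or H3K4me1 region of the 9 genes differed 2-fold, with genome shares of 1.46% higher and 0.39% lower for H3K27ac and 0.0169% and 0.858% for H3K4me1. Within the region at the internal start site of Smad1, the FLAG summits of the 2 arms lay 0.385 kb apart. Beside it, a promoter region of the same start site (chr8:79347836-79348923) had H3K4me1 alone, in NanogWT only, at 13 tags.

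FLAG and BRG1 were listed together in NanogBiD only at 3 further places in Smad1. An intron 9.25 kb into the gene (chr8:79389359-79391170) had 28 and 12 tags and no histone peak in either arm. The end of the gene, 60.1 kb from its start (chr8:79338690-79340049), had 18 and 12 tags with H3K4me1 at 12 tags in NanogBiD. An exonic region 27.2 kb into the gene (chr8:79371795-79372792) had 14 and 11 tags and no histone peak. At the main promoter (chr8:79396747-79400152) FLAG was 19 and 22 tags, BRG1 18 and 18, and H3K27ac 42 and 38.

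H3K4me1 ran the other way at Smad1, with 8 peaks in NanogWT and 3 in NanogBiD. Of 6 Smad1 regions with H3K4me1 in NanogWT only, heights ran from 13 to 22 tags, the tallest being an intronic region 16.3 kb into the gene (chr8:79382663-79383724). That region also had BRG1 in NanogWT only, at 11 tags, and H3K27ac in both arms, at 8 and 12 tags. Over the 9 windows, 9 of the 56 regions consisted of H3K4me1 in NanogWT alone, against 11.5% over protein-coding windows.

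The inhibitors differed from each other. Smad6, an inhibitory SMAD that BMP signalling itself induces, had FLAG at its promoter (chr9:64016423-64023634) at 22 and 23 tags, BRG1 at 22 and 19, and H3K27ac at 25 and 22. FLAG, BRG1 and H3K27ac peaks listed in 1 arm only lay 41.5 kb or more from the start. An intron 62.5 kb from the start (chr9:63957813-63961267) had FLAG summits of 12 and 18 tags and H3K27ac at 19 tags in NanogBiD only, on H3K4me1 of both arms. A region 79.9 kb from the start (chr9:63941368-63942979) had FLAG and BRG1 in NanogBiD only, each at 11 tags, where H3K27ac was 18 tags in both arms and H3K4me1 was 24 and 15. An intron 41.5 kb from the start (chr9:63979855-63981347) had FLAG in NanogWT only, at 11 tags, and H3K27ac in NanogBiD only, at 13 tags, on H3K4me1 of 15 and 12 tags.

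Grem1, a secreted antagonist that binds BMP ligands, was the only gene with fewer FLAG and BRG1 peaks in NanogBiD. Its FLAG regions were nevertheless all listed in both arms, and the upstream one held 2 FLAG peaks in NanogWT and 1 in NanogBiD. For BRG1, the promoter region held 2 and 1 peaks. Upstream, a BRG1 region was listed in NanogWT only and another in NanogBiD only. At its promoter (chr2:113756063-113759937) FLAG was 17 and 13 tags, H3K27ac 19 and 16, and H3K4me1 20 and 17, and BRG1 had summits of 11 and 16 tags in NanogWT and of 10 in NanogBiD. A region 20.5 kb upstream (chr2:113775951-113782298) had FLAG summits of 27 and 21 tags in NanogWT and of 25 in NanogBiD, with BRG1 at 13 tags in each arm at places that did not overlap. Neither histone mark was listed in the part of that region inside the window, which ends at chr2:113778646. Histone peaks wholly beyond that end were not taken.

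**Figure D3:**
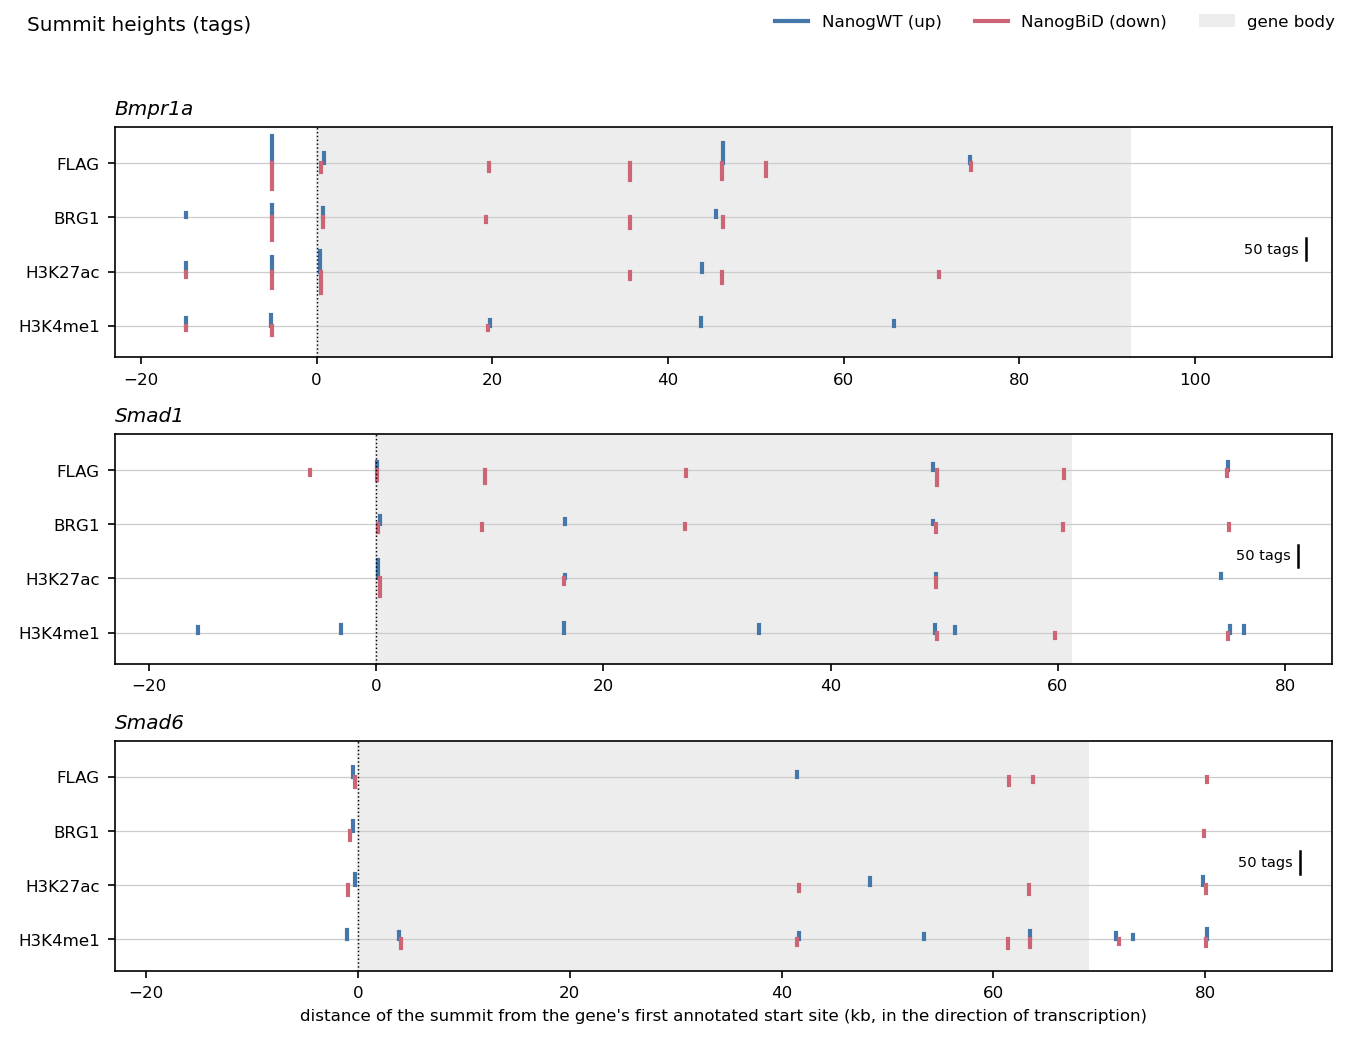
Summit heights along the windows of Bmpr1a, Smad1 and Smad6, by target, against distance from the first annotated start site (x axis, kb), with NanogWT lines pointing up and NanogBiD lines down, a bar of 50 tags as the scale and the gene body in grey. FLAG and BRG1 lines point down with no partner inside Bmpr1a and Smad1, while H3K4me1 lines without a partner mostly point up.

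The Id genes, the targets of the pathway, had 1 to 3 FLAG peaks per window in each arm, and the similarly short windows of Bmp4 and Grem1 had 2 or 3. Id1 had no FLAG or BRG1 peak at its promoter (chr2:152734404-152736972), where H3K27ac was 21 tags in NanogWT and 22 in NanogBiD and H3K4me1 was listed in NanogBiD only, at 24 tags. A region 4.59 kb past the start (chr2:152738676-152743006) had FLAG at 19 and 28 tags, a ratio of 1.47 (0.794 to 2.79), with summits 1.06 kb apart, and BRG1 in NanogBiD only at 17 tags. A region 6.20 kb upstream (chr2:152729349-152730756) had FLAG at 13 and 11 tags, BRG1 in NanogWT only at 11 tags, H3K27ac at 16 and 12, and H3K4me1 at 26 and 19. BRG1 at Id1 was thus listed once in each arm, but at different places.

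Id2 had FLAG at 34 tags in NanogWT and 29 in NanogBiD over its promoter (chr12:25094448-25097235), with both summits inside the 250 bases printed above. BRG1 there was 20 and 23 tags and H3K27ac 17 and 22. H3K4me1 was listed over this region in NanogWT only, at 26 tags, and just upstream (chr12:25097780-25099280) in NanogBiD only, at 21 tags. At that upstream place H3K27ac was listed in NanogWT only, at 17 tags. A FLAG peak of 15 tags 13.2 kb from the start (chr12:25083136-25084712) was listed in NanogBiD only, where H3K27ac was 10 and 15 tags.

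Id3 had the FLAG summits of both arms inside the printed promoter as well, 7 bases apart and within 50 bases of its second SMAD box match. FLAG at this region (chr4:136141929-136145414) was 21 tags in NanogWT and 33 in NanogBiD, and BRG1 was likewise 21 and 33, each a ratio of 1.57 (0.882 to 2.86). H3K27ac was 28 and 26 tags and H3K4me1 25 and 21. A second promoter region 2.74 kb upstream (chr4:136139952-136141566) had FLAG in NanogWT only, at 17 tags, and BRG1 in NanogBiD only, at 18 tags, with H3K27ac at 25 and 28. A FLAG peak of 15 tags 20.3 kb past the start was listed in NanogBiD only, and the nearest protein-coding start site there belongs to E2f2.

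Id4 differed in the other direction at its promoter (chr13:48260351-48263096), where FLAG was 24 tags in NanogWT and 14 in NanogBiD, which is a ratio of 0.583 (0.279 to 1.17). BRG1 was 17 and 16 tags and the highest H3K27ac summit was 17 in both arms. A region 8.47 kb upstream (chr13:48252081-48253432) had FLAG at 21 and 22 tags with BRG1 in NanogBiD only, at 12. BRG1 in NanogBiD only was also listed 12.5 kb from the start, at 8 tags, among the lowest in the list. Across the Id promoters, then, FLAG stood higher in NanogBiD at Id3 and lower at Id2 and Id4, and every interval included 1.

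**Figure D4:**
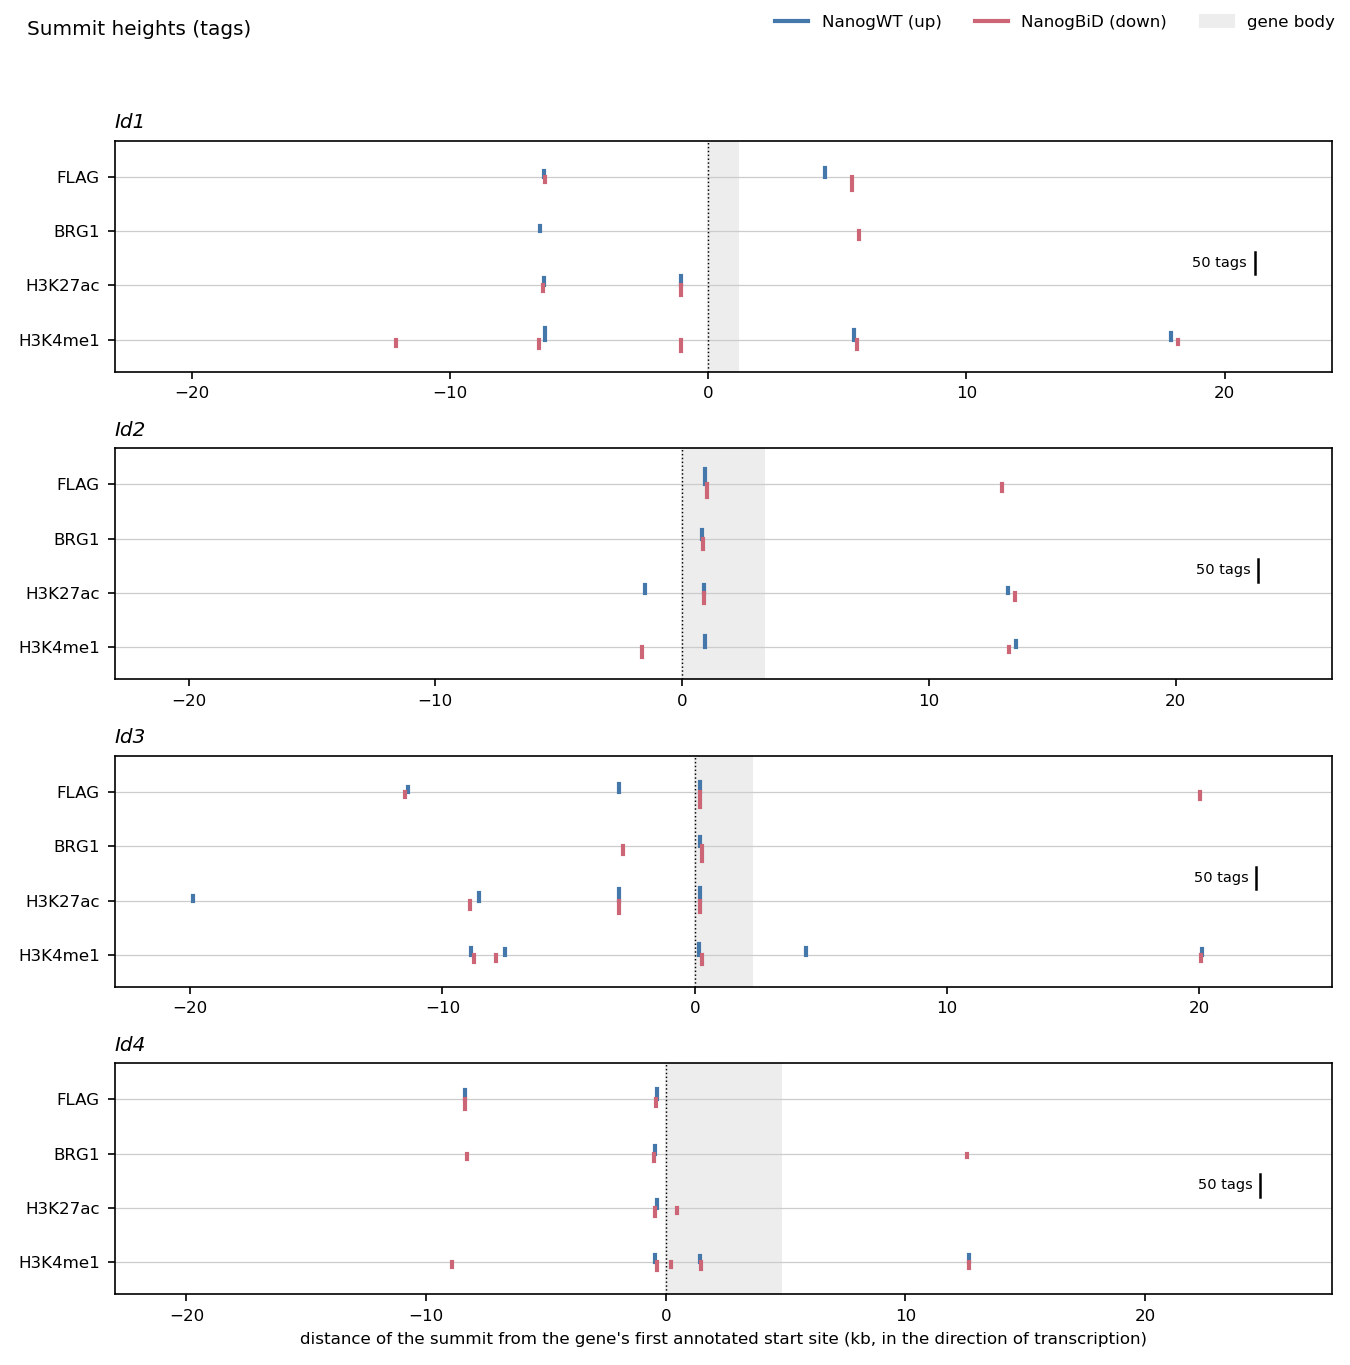
Summit heights along the windows of Id1, Id2, Id3 and Id4, drawn as for the signalling genes, with distance from the first annotated start site on the x axis (kb) and a bar of 50 tags as the scale. Id1 lacks FLAG and BRG1 lines at its start, and Id2, Id3 and Id4 have a line of each arm there for FLAG, BRG1 and H3K27ac.

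At the regions listed in both arms, heights were compared region by region and as sums. The 19 shared FLAG regions had a median log2 ratio of NanogBiD to NanogWT of -0.07, with 8 higher, 10 lower and 1 equal, against 0.15 over all shared FLAG regions. The 11 shared BRG1 regions had a median log2 ratio of 0.14, with 7 higher and 3 lower, against 0.14 over the genome. H3K27ac had 0.07 over 19 regions, with 11 higher and 6 lower, against 0.08. H3K4me1 had -0.24 over 24 regions, with 3 higher and 18 lower, against -0.18. Summed over these regions, FLAG heights came to 442 tags in NanogWT and 439 in NanogBiD (log2 ratio -0.01, 95% exact binomial interval -0.20 to 0.18) and those of H3K27ac to 401 and 423 (0.08, -0.12 to 0.28). BRG1 summed to 197 and 243 tags (0.30, 0.03 to 0.58) and H3K4me1 to 423 and 356 (-0.25, -0.46 to -0.04), and these intervals excluded a log2 ratio of 0. The upstream element of Bmpr1a alone held 28 of the BRG1 tags in NanogWT and 49 of those in NanogBiD, and the sums were not recomputed without it. The median log2 ratio over all shared regions of the genome lay inside the interval of each of the 4 targets. With peak scores in place of heights the FLAG median was 0.13, the BRG1 median 0.58 and the H3K27ac median -0.12, so the sign for FLAG and for H3K27ac depended on the measure. With the genome median subtracted, the median fell to -0.23 at FLAG regions, was 0 at BRG1 regions and -0.02 at H3K27ac regions, and moved to -0.06 at H3K4me1 regions.

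**Figure D5:**
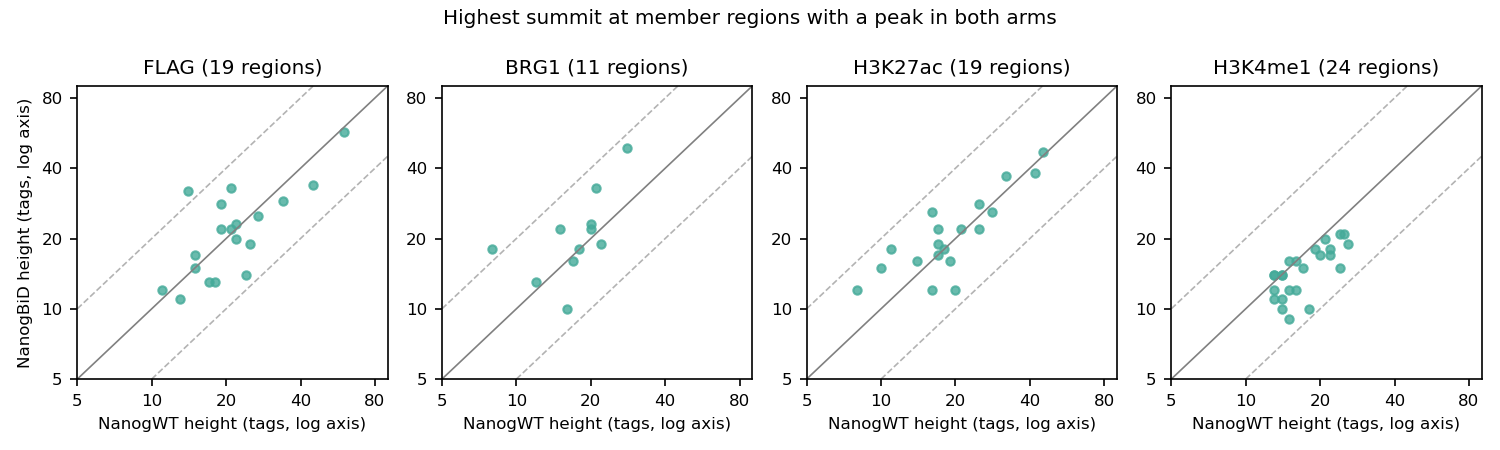
Highest summit in NanogWT (x axis, tags, log scale) against NanogBiD (y axis, tags, log scale) at each member region with a peak in both arms, per target, with the line of equality and dashed lines at 2-fold. A FLAG and a BRG1 point, both at the internal start of Smad1, lie past the upper dashed line, and 18 of 24 H3K4me1 points lie below equality.

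The other genes of the pathway were taken as a list of ligands, receptors, SMADs, inhibitors and further targets, of which 43 were found in the annotation. FLAG peaks were more numerous in NanogBiD at 20 of the 42 with a FLAG peak and fewer at 6 (50.2% and 17.6% of protein-coding windows with a peak), with 149 and 183 peaks in all, a ratio of 1.23. BRG1 was more numerous at 24 of 42 and fewer at 7 (background 53.2% and 12.7%), with 97 and 138 peaks (1.42). H3K27ac was more numerous at 15 of 39 and fewer at 7 (37.4% and 17.4%), with 113 and 124 peaks (1.10). H3K4me1 was more numerous at 11 of 43 and fewer at 28 (19.7% and 51.6%), with 215 and 168 peaks (0.781). These ratios lay within 0.04 of those over all protein-coding windows.

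The largest gains in BRG1 peak number on that list were at Acvr1, a type I receptor, with 6 in NanogWT and 14 in NanogBiD, at Bmper, a secreted modulator of BMP ligands, with 6 and 11, and at Eng, a co-receptor of endothelial cells, with 3 and 8. FLAG at these genes was 15 and 19, 12 and 17, and 2 and 7. The largest loss was smaller, at the type II receptor Acvr2b with 4 and 2 BRG1 peaks. The other 6 genes with fewer BRG1 peaks in NanogBiD, namely Chrd, Bmp3, Bmpr2, Ski, Nog and Atoh8, were tied at a loss of 1 peak each. H3K4me1 was 10 and 8 peaks at Acvr1, 19 and 11 at Bmper, and 7 and 8 at Eng.

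When each gene was matched to the protein-coding gene with the smallest summed difference over the 8 peak numbers, the match was unique for 4 members. These were Cd80 for Id1 and Yars for Id2, both with identical numbers, Myadm for Id3 with a summed difference of 1, and Reep3 for Smad1 with 3. Smad1, with its opposed FLAG and H3K4me1 numbers, was thus among the least closely matched.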

How the data were processed

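CUT&Tag peak and summit lists of 8 libraries were analysed, FLAG, BRG1, H3K27ac and H3K4me1 in NanogWT and in NanogBiD. Per the labels and the methods of the study, reads were trimmed with Trim Galore (0.6.4), aligned to mm10 with Bowtie2 (2.4.5), filtered with SAMtools (1.16.1), merged over replicates and called with MACS (1.4.2), without a named control library. The study states a general minimum of replication for its experiments, but how many replicates were merged into each of these lists was not given in the sources used here. In the deposited peak lists the score is the significance score of the peak caller, with a minimum of 50 throughout. The signal in the deposited summit files is the pileup of tags at the summit, called the height here, which the authors did not scale to depth. Merging before calling removes the replicate spread, and a deeper library yields more peaks, so only counting error could be given.

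Peaks and summits were joined by name and assigned to genes of GENCODE M21, whose build matches mm10. Ratios of counts carry 95% exact binomial intervals and shares carry Wilson intervals (Python 3.11.15, SciPy 1.17.1). Tags from PCR are not independent molecules, so all intervals cover counting error only. Groups came from the labels, and no test between arms was made. Height differences were counted as changes from 2-fold. Counting and merging were tested on simulated data.

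The 9 genes, the pathway list and the motifs were chosen with earlier results of these data known. All 9 genes were described, with regions given by position where they were promoters, had FLAG or BRG1 in 1 arm only at 15 tags or more, or differed 2-fold, and others where they helped to describe a gene. From the pathway list the 3 genes with the largest gain and the 3 with the largest loss in BRG1 peak number were to be named, with ties settled by FLAG peak number and symbol. Since 6 genes were tied behind the largest loss, all 6 were named. Regions outside the rule were covered by counts and maps, and the values of 1 region are not reported here. The symbol of 1 further list gene, Hjv, was not matched in the annotation. Alternatives were lists limited to the 20000 highest-scoring peaks, scores of 100 or more, heights of at least 15 tags, windows of 10 and 50 kb, promoters of 1 kb, other overlap rules, peak scores for heights, and centring on the genome median.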

Additional observations from a re-analysis of the deposited data

How the results depend on the processing

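No paired analysis was possible because replicates had been merged into 1 library per group. The cause of the differences below was not tested beyond what the alternatives change by construction, namely fewer peaks or wider windows. Background shares and ratios were not recomputed under the alternatives, so a move of a member value cannot be told from a move of the whole list. Of 24 alternative ratios of peak numbers 23 stayed inside the counting interval, the exception being H3K4me1 with scores of at least 100, at 0.333 (main value 0.816). With lists of equal size, the 20000 highest-scoring peaks of each, the BRG1 ratio was 1 (main value 1.5) and the FLAG ratio 1.14. By peak score, the median log2 ratio was 0.13 for FLAG, where the heights gave -0.07, 0.58 for BRG1, and -0.12 for H3K27ac, where the heights gave 0.07. Counts below are regions in NanogBiD only, in NanogWT only and in both arms, in that order, where they left the range of 1.5 times unless stated otherwise. With scores of at least 100, FLAG had 8 NanogBiD-only and 12 shared regions, BRG1 0 NanogWT-only and 5 shared, H3K27ac 1 NanogBiD-only and 11 shared, and H3K4me1 0 NanogBiD-only and 5 shared. With the 20000 highest-scoring peaks, the counts were 4, 3 and 4 for FLAG, 3, 3 and 7 for BRG1, 3, 4 and 7 for H3K27ac, and H3K4me1 had 1, 6 and 4. Of these, the NanogWT-only counts of FLAG, BRG1 and H3K27ac stayed within the range. With heights of at least 15 tags, BRG1 had 4 NanogBiD-only and 1 NanogWT-only, and H3K4me1 2 NanogBiD-only and 12 shared. With windows of 50 kb the counts were 23, 8 and 35 for FLAG, 22, 7 and 23 for BRG1, 8, 10 and 33 for H3K27ac, and 9, 26 and 44 for H3K4me1. With 10 kb, 2 NanogWT-only regions were left for BRG1 and 2 for H3K27ac. With an overlap of at least 50% of both peaks, FLAG had 5 NanogWT-only, H3K27ac 9 NanogBiD-only and 8 NanogWT-only, and H3K4me1 8 NanogBiD-only. Promoters listed for FLAG were 5 of 9 in NanogWT and 3 of 9 in NanogBiD with the 20000 highest-scoring peaks, for BRG1 4 of 9 in NanogWT and 7 of 9 in NanogBiD with scores of at least 100 but 7 and 6 with the 20000 highest, and for H3K27ac 5 of 9 in NanogWT with the 20000 highest. For H3K4me1 they were 3 in NanogWT and 1 in NanogBiD with scores of at least 100, and 2 and 1 with the 20000 highest. An alternative chosen after seeing the data, without peaks or regions nearest to another protein-coding gene, moved none of the ratios of peak numbers and none of the region counts past its range, and was not run for the medians and promoters.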
